A study of Mus musculus with 12 samples.

Results

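The genes described here encode the proteins of the cytoplasmic ribosome. They were chosen by symbol alone, as the rows of the count table named Rpl or Rps plus a number, with an optional a, x, y or l, or named Rplp0 to Rplp2 or Rpsa, with pseudogenes left out. This gave 81 genes of 23337 rows, of which 49 carry large-subunit names and 32 small-subunit names. RNA sequencing had been run on 12 libraries of NU1, a mouse line of normal urothelial cells that became immortal through serial passage. Cells were either proliferating in full medium with EGF, or at day 7, grown to confluence and then kept in the same medium with rosiglitazone at 1 µM (an activator of the nuclear receptor PPAR gamma) and erlotinib at 0.5 µM (an inhibitor of the EGF receptor kinase), a state labelled both quiescent and differentiation day 7. Each state was sampled with a lentiviral control hairpin, shNT, whose genotype is labelled WT, and with the hairpin sh4 against Stag2, labelled Stag2-KD. The study's title concerns the tumour suppressor STAG2, a subunit of the cohesin ring, in the maintenance of quiescence. The 4 groups held 3 libraries each, 1 from each of experiments 5, 7 and 9, and each experiment was also a batch in the labels. All libraries came from 1 cell line and the knockdown from 1 hairpin, so p-values measure only the spread between these 3 experiments.

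A ribosome carries 1 copy of nearly every ribosomal protein, and the genes are transcribed at high and balanced rates in growing cells. Their mRNAs commonly begin with a run of pyrimidines at the cap, the 5′ terminal oligopyrimidine or TOP motif, through which the kinase mTORC1 and the protein LARP1 adjust their translation and stability. Cells that leave the cell cycle usually make fewer ribosomes. A few of the proteins have further roles: RPL5 and RPL11 bind MDM2 when ribosome assembly is disturbed, RPS6 is the classical substrate of the S6 kinases, and Rps27a encodes ubiquitin fused to a ribosomal protein.

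The annotated start sites were searched for runs of pyrimidines. RefSeq promoter windows on GRCm38.p6 were found for 61 members, and the 30 bases centred on the annotated start were searched for the longest run of C and T on the gene's strand. The run could lie anywhere in the window and need not begin at the start site. A run of at least 8 was present at some annotated start of 26 of the 61 members (42.6%), against 13.9% of all genes in the promoter table. The first 5 windows below hold the longest runs. Rps6 is shown as the S6 kinase substrate, and Rps12, Rpsa and Rplp0 have the largest differences described later. Capitals mark the longest run of C and T, and the start site is base 16 of each.
Rpl7a: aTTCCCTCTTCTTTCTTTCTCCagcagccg
Rpl27a: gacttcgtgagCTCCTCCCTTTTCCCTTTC
Rpl34: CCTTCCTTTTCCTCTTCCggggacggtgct
Rpl35: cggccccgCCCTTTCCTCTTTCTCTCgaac
Rpl15: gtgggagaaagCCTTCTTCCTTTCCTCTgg
Rps6: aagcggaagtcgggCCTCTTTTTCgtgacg
Rps12: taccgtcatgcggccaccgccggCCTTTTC
Rpsa: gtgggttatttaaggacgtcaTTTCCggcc
Rplp0: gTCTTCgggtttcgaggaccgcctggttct

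These windows lie at chr2:26910792-26910821 on the plus strand for Rpl7a, chr7:109519180-109519209 plus for Rpl27a, chr3:130730323-130730352 minus for Rpl34, chr2:39005117-39005146 minus for Rpl35 and chr14:18270972-18271001 minus for Rpl15. Those of Rps6, Rps12, Rpsa and Rplp0 lie at chr4:86857353-86857382 minus, chr10:23787195-23787224 minus, chr9:120127751-120127780 plus and chr5:115559452-115559481 plus. The run was 21 bases long in Rpl7a and 10 in Rps6, but 7 in Rps12 and 5 in both Rpsa and Rplp0. In the 300 bases from 250 before the start to 50 after it, on both strands, CCGGAAG, a core of ETS factor sites, occurred in 42.6% of the members and 9.93% of all genes. CTTTCC, which can lie inside a C and T run, occurred in 52.5% against 29.3%, and CACGTG, the E-box bound by MYC, in 9.84% against 8.09%. A TATAAA sequence was found in 9.84% of the members and 15.7% of all genes. Each match describes letters at annotated starts, which need not be the starts used in NU1 cells.

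The labels were checked before the members were compared. Stag2 stood at 107 to 145 CPM (counts scaled to library size with TMM factors) in the 6 shNT libraries, at 24.6 to 33.3 CPM in proliferating sh4 cells and at 9.43 to 15.3 CPM in day 7 sh4 cells. Stag2 fell with the hairpin in proliferating cells (log2 fold change −2.26, SE 0.19, adjusted p = 0.00121) and at day 7 (log2 fold change −3.32, SE 0.20, adjusted p = 3.39e-05, both edgeR). Of 13 urothelial markers 10 passed the expression filter, with a summed level of 12112 to 18862 CPM in 9 libraries and of 21149 to 22756 CPM in the 3 day 7 sh4 libraries, while Trp63, a basal urothelial factor, had no count in any library. Summed levels were at most 2.27 CPM for 7 fibroblast markers, 9.42 CPM for 5 immune markers and 0.239 CPM for 4 endothelial markers. Library totals ran from 14524429 to 21987539 counts, the highest being the day 7 sh4 library of experiment 5.

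Ribosomal protein genes took a large part of each library. In proliferating shNT cells they held 5.20%, 7.14% and 7.61% of all counts in experiments 5, 7 and 9, a mean of 6.65% ± 1.28 (SD, n = 3). In proliferating sh4 cells the shares were 5.26%, 7.68% and 5.95%, a mean of 6.29% ± 1.25 (SD, n = 3). At day 7 the shNT libraries held 3.40%, 5.54% and 5.62%, a mean of 4.85% ± 1.26 (SD, n = 3). The day 7 share lay below the proliferating share of the same experiment each time, but the experiments differed so much that the groups overlap: proliferating cells of experiment 5 were below day 7 cells of experiments 7 and 9. In day 7 sh4 cells the shares were 4.60%, 4.18% and 3.80%, a mean of 4.20% ± 0.400 (SD, n = 3), all below every proliferating sh4 library. These are shares of poly(A) RNA in bulk libraries, where fewer cells of a kind and less RNA per cell cannot be told apart.

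**Figure D1:**
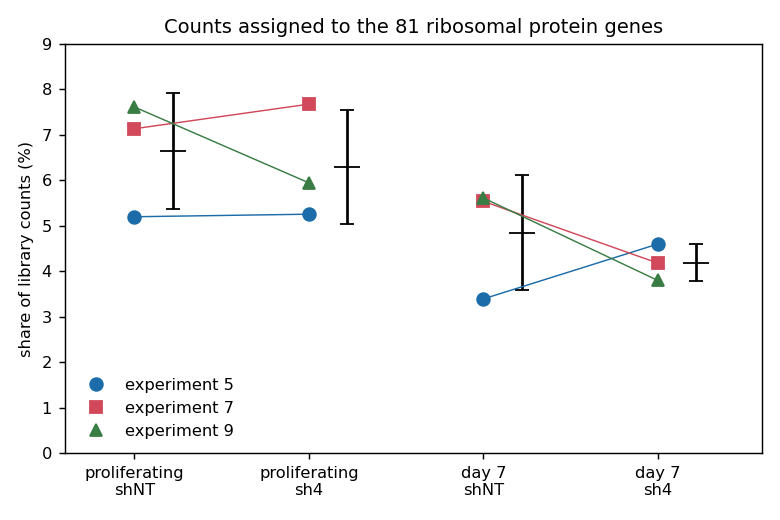
Share of library counts (%) assigned to the 81 genes, by group. Points are libraries, joined within an experiment between shNT and sh4, and black bars give the mean and SD of 3 libraries. The day 7 shNT libraries lie at 3.40% to 5.62% and the proliferating shNT libraries at 5.20% to 7.61%.

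Per kilobase of transcript, the members were among the most abundant mRNAs. In proliferating shNT cells, 74 of the 81 genes reached 50 CPM, and their level ran from 85.0 to 3167 CPM per kb with a median of 1056 CPM per kb, against 11.5 for all 12406 tested genes. Of the 100 highest genes on this scale, 60 were members. Transcript length was chosen by a rule that favoured the shortest transcript more strongly for members than for other genes, which can raise the members on this scale. Rps12, a protein of the small-subunit head, was the highest member at 3167 CPM per kb. It was followed by Rplp1 at 2693 CPM per kb, Rpl41, which encodes a peptide of very few residues, at 2030, and Rplp0 at 2029. The lowest of the 74 on this scale, Rps15a at 85.0 and Rps20 at 209, had the longest chosen transcripts, 5130 and 3706 nt, so their level per kb depends on that choice of transcript. Rps27l, a copy of Rps27 known as a p53 target, stood at 349 CPM per kb.

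The other 7 members were at or near 0. Rpl3l, Rpl10l and Rpl39l, paralogs known from muscle and testis, had at most 2, 1 and 1 counts in any library. Rpl26, a core protein that binds p53 mRNA, had 0 to 3 counts. These 4 genes did not pass the filter. Rps27 passed with 11 to 32 counts per library, Rpl30 with 38 to 94 and Rpl34 with 57 to 194, so 77 of the 81 members were tested. The 74 abundant members had at least 1907 counts in every library, far above the filter in all 4 groups.

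Low counts of the 4 core genes coincided with sequence shared with another row of the table. The measure was the share of 50-base words of the transcript, in GENCODE release M21, that also occur in a gene listed in the table. It was 98.6% for Rps27, 60.6% for Rpl26, 50.6% for Rpl34 and 47.8% for Rpl30. The rows holding the copies were low too: Gm9846 and Gm15772 had 0 counts in all libraries, Gm12191 had 0 to 7 and Rpl34-ps1 had 3 to 21. Members sharing less were well counted, such as Rps24 at 36.8% with 6389 to 17274 counts and Rplp2 at 30.7% with 2885 to 8751. How reads that match several genes were counted is not given in the sources used here, and the part of shared sequence in these low counts was not tested. Copies that are not rows of the table are far more common: 44 of the 81 members share at least 50% of their words with some other annotated gene, mostly processed pseudogenes, and their levels are uncertain to that extent. This share depends on the chosen transcript and can be low where that is long. Rps15a, at 5130 nt, shares 6.04% of its words, yet with 39 other genes.

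**Figure D2:**
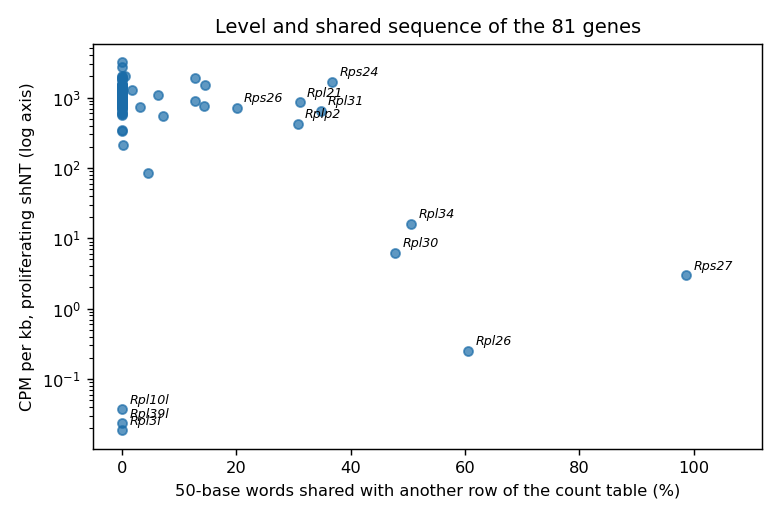
Level in proliferating shNT cells (mean of 3 libraries, CPM per kb, log axis) against the percentage of 50-base words shared with another row of the count table, for the 81 genes. Rpl30, Rpl34, Rpl26 and Rps27, at 47.8% or more, lie far below the other core genes, and the 3 paralogs at the bottom share nothing with another row.

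Day 7 was first compared with proliferation in shNT cells. Across the tested members the log2 fold change centred on −0.51 (median; quartiles −0.57 and −0.39), whereas over all tested genes the median was 0.0047. The estimate was negative for 76 of the 77, and Rps27 was the exception. With edgeR's quasi-likelihood test and Benjamini-Hochberg adjustment over all tested genes, 1 of the 77 (1.3%) passed an adjusted p of 0.05 and was lower, against a background of 11.7% of tested genes called lower, and 26 had an unadjusted p under 0.05. Shares of all tested genes at an unadjusted p under 0.05 are not given here or below. Counts at that level are therefore not read as results about the members. With the experiment as a replicate block, 22 (28.6%) were lower, against 18.5% of tested genes. By direction alone, 73 members (94.8%) were lower in all 3 experiments, against 31.5% of tested genes. The groups did not overlap for 7 members (9.09%), against 18.5%. The share of members called was thus below the background without the block and above it with the block.

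Rplp0, the scaffold of the P stalk that recruits elongation factors, was the member that passed. Its level in experiments 5, 7 and 9 was 2325, 2860 and 3083 CPM in proliferating shNT cells and 1145, 1916 and 1976 CPM at day 7. All 3 day 7 values lay below all proliferating ones. Rplp0 fell by 0.71 on the log2 scale (SE 0.22, edgeR adjusted p = 0.0409, or 0.0143 with the replicate block). The call rests on a narrow margin: leaving out any 1 of 7 of the 12 libraries (shNT of experiment 7 or 9 in proliferation, shNT of experiment 5 or 7 at day 7, or any day 7 sh4 library) ended it, with adjusted p from 0.0296 to 0.126 over the 12, and it was also lost with no low-count filter (0.0529), with only the 6 shNT libraries (0.108) and without experiment 5, 7 or 9 as a whole (0.071, 0.179 and 0.170).

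Rpsa, a small-subunit protein once described as a laminin receptor, had the largest estimate. It was at 1488, 2383 and 2230 CPM in proliferating shNT cells and at 806, 1483 and 1309 CPM at day 7. The groups did not overlap, though the lowest proliferating and the highest day 7 values were nearly equal. The estimate was −0.76 on the log2 scale (SE 0.27, edgeR adjusted p = 0.0727, or 0.0116 with the replicate block). Rps12 went from 1105, 1613 and 1974 CPM to 564, 1132 and 1112 CPM, so that 2 day 7 libraries lay just above the proliferating library of experiment 5. The estimate was −0.74 on the log2 scale (SE 0.29, edgeR adjusted p = 0.0970, or 0.0217 with the block). Rpl12, at the base of the P stalk, and Rpl13 followed with −0.71 (SE 0.32, adjusted p = 0.142) and −0.67 (SE 0.28, adjusted p = 0.110), and with the block these were 0.0365 and 0.0318.

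At the other end, Rpl22, whose loss is tolerated in mice through the copy Rpl22l1, had an estimate near 0. It was at 210, 318 and 292 CPM in proliferating shNT cells and at 206, 315 and 270 CPM at day 7. The groups overlapped over nearly their whole range, with a log2 fold change of −0.05 (SE 0.23, adjusted p = 0.899). Rps21, a small-subunit protein needed for late 18S rRNA processing, had −0.12 (SE 0.31, adjusted p = 0.827) and Rps27l −0.13 (SE 0.18, adjusted p = 0.657). Rps27 at 0.59 (SE 0.38, adjusted p = 0.301) and Rpl30 at −0.18 (SE 0.35, adjusted p = 0.747) rest on the low counts above.

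Beside Rplp0, Rpsa, Rps27 and Rps27l, already described at the ends of the range, 10 more members with special roles or a copy were read. Rpl5 was at 1213, 1751 and 1807 CPM in proliferating shNT cells and at 819, 1279 and 1444 CPM at day 7, a log2 fold change of −0.43 (SE 0.23, adjusted p = 0.215), and its partner Rpl11 had −0.55 (SE 0.24, adjusted p = 0.133). Rps6 had −0.40 (SE 0.24), Rps27a −0.59 (SE 0.27), and the other stalk proteins Rplp1 and Rplp2 −0.51 (SE 0.30) and −0.49 (SE 0.26). Of the genes read because they have a copy, Rpl3, next to the peptidyl transferase centre, had −0.39 (SE 0.22). Rpl10, which joins the large subunit last, had −0.24 (SE 0.22), Rpl39, at the exit tunnel, −0.28 (SE 0.27), and Rps4x −0.52 (SE 0.24). None of these 10 had an adjusted p under 0.05, with or without the block. Rpl10 and Rpl39 lay above the upper quartile of the members, by 0.26 ± 0.082 and 0.21 ± 0.0083 (SD over 3 experiments) relative to the median member. Large-subunit members had a median of −0.51 over 45 genes, and small-subunit members −0.51 over 32.

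**Figure D3:**
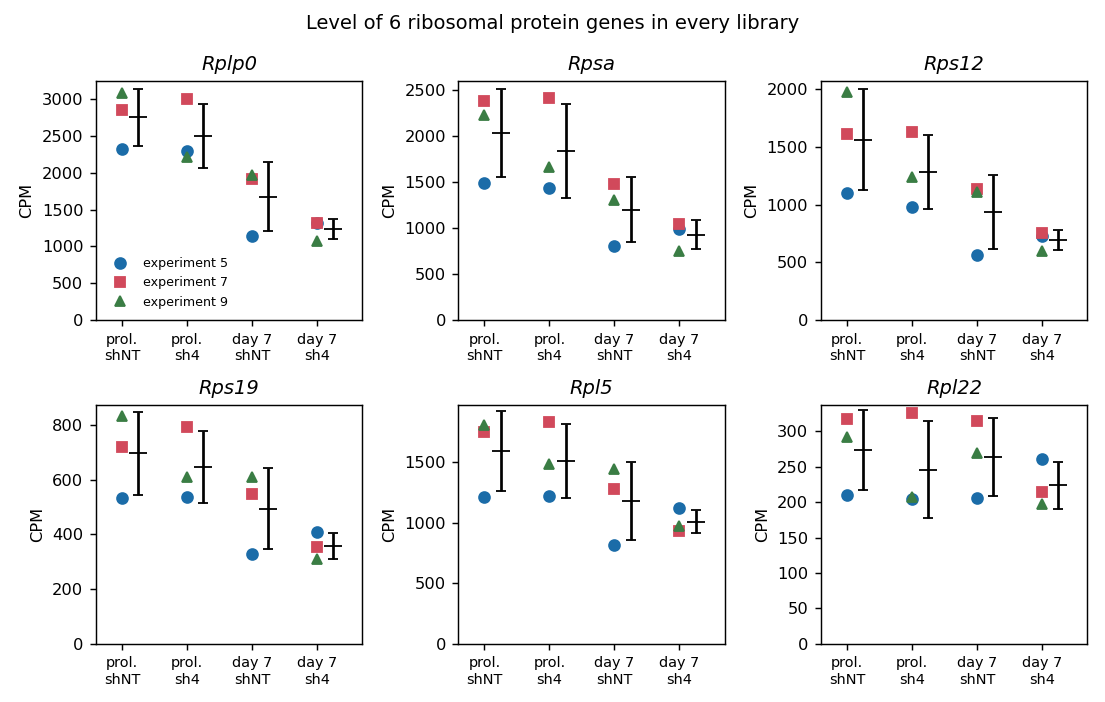
CPM of 6 members in each of the 12 libraries, by group, with points marked by experiment and black bars giving the mean and SD of 3 libraries. Rplp0, Rpsa, Rps12, Rps19 and Rpl5 are lower at day 7 in every experiment with either hairpin. Rpl22 is slightly lower in each experiment in shNT cells, but higher in sh4 cells of experiment 5 (205 against 261 CPM, proliferating first). The proliferating and day 7 shNT groups of Rps12, Rps19, Rpl5 and Rpl22 overlap.

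The same comparison in sh4 cells gave a median log2 fold change of −0.59 (all tested genes 0.0045), with 76 of 77 estimates negative. By edgeR, 12 members (15.6%) fell, against 10.8% of tested genes called lower, and 50 had an unadjusted p under 0.05. With the replicate block 34 (44.2%) fell, against 17.2%. The groups did not overlap for 51 members (66.2%), against 19.1% of tested genes, and 56 (72.7%) were lower in all 3 experiments, against 27.3%. The 12 were 7 large-subunit genes, among them Rplp0, Rpl4, Rpl6, Rpl7, Rpl23a and Rpl28, and 5 small-subunit genes, Rpsa, Rps15, Rps16, Rps19 and Rps20, chosen for naming after their values were seen. Their log2 fold changes ran from −1.02 to −0.68. All but Rplp0 lost the call without any 1 of 4 to 8 of the 12 libraries.

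Rplp0 was at 2302, 3008 and 2210 CPM in proliferating sh4 cells and at 1322, 1314 and 1079 CPM at day 7, again without overlap. It fell by 1.02 on the log2 scale (SE 0.22, edgeR adjusted p = 0.00928), and this call held without any 1 library (adjusted p from 0.00386 to 0.0487) but not without experiment 7 (0.126) or 9 (0.0874). Rpsa went from 1436, 2420 and 1663 CPM to 989, 1046 and 752 CPM and fell by 0.99 (SE 0.28, adjusted p = 0.0303), a call lost without any 1 of 5 libraries (proliferating sh4 of experiment 7 or 9, or any day 7 sh4 library). Rps12 had −0.88 (SE 0.29, adjusted p = 0.0585, or 0.0161 with the block). Rps19, the gene most often mutated in Diamond-Blackfan anaemia, was at 536, 794 and 610 CPM in proliferating sh4 cells and at 408, 354 and 311 CPM at day 7. It fell by 0.86 (SE 0.25, adjusted p = 0.0346), without overlap. Rpl22 had −0.14 (SE 0.23, adjusted p = 0.718), Rpl30 −0.18 (SE 0.35) and Rps27 0.50 (SE 0.38), again the members with the highest estimates.

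The 3 experiments did not move alike in sh4 cells. The median of the members was −0.11 in experiment 5, −0.97 in experiment 7 and −0.64 in experiment 9, whereas in shNT cells it was −0.61, −0.47 and −0.45. In experiment 5, 21 of the 77 members were not lower at day 7 in sh4 cells, and in experiment 7 only Rps27 was not. Without experiment 5, 49 members (63.6%, against 8.3% of all tested genes) passed the test in sh4 cells. Without experiment 7 or 9, 0 passed by edgeR, against 3.72% and 3.83% of all tested genes, with 3 and 13 at an unadjusted p under 0.05. In shNT cells the count was 5 without experiment 5 (6.49%, against 9.4% of all tested genes). It was 0 without experiment 7 or 9 (against 3.24% and 5.03%), with 5 and 4 at an unadjusted p under 0.05. With 1 library left out, shNT cells gave 14 without proliferating shNT of experiment 5 (18.2%, against 13.8%). They gave 3 without day 7 shNT of experiment 9 (3.9%, against 7.79%) and 2 without proliferating sh4 of experiment 7 (2.6%, against 10.4%). The count was 0 without any of the 7 libraries that end the Rplp0 call, against 6.99% to 10.7% of all tested genes. Leaving out 1 library moved the sh4 count to 1 (1.3%) without proliferating sh4 of experiment 7 or day 7 sh4 of experiment 7 or 9, against 6.81%, 8.78% and 5.82% of all tested genes. The sh4 count was 3 (3.9%, against 7.37%) without proliferating sh4 of experiment 9, and 4 (5.19%, against 6.51%) without day 7 sh4 of experiment 5.

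**Figure D4:**
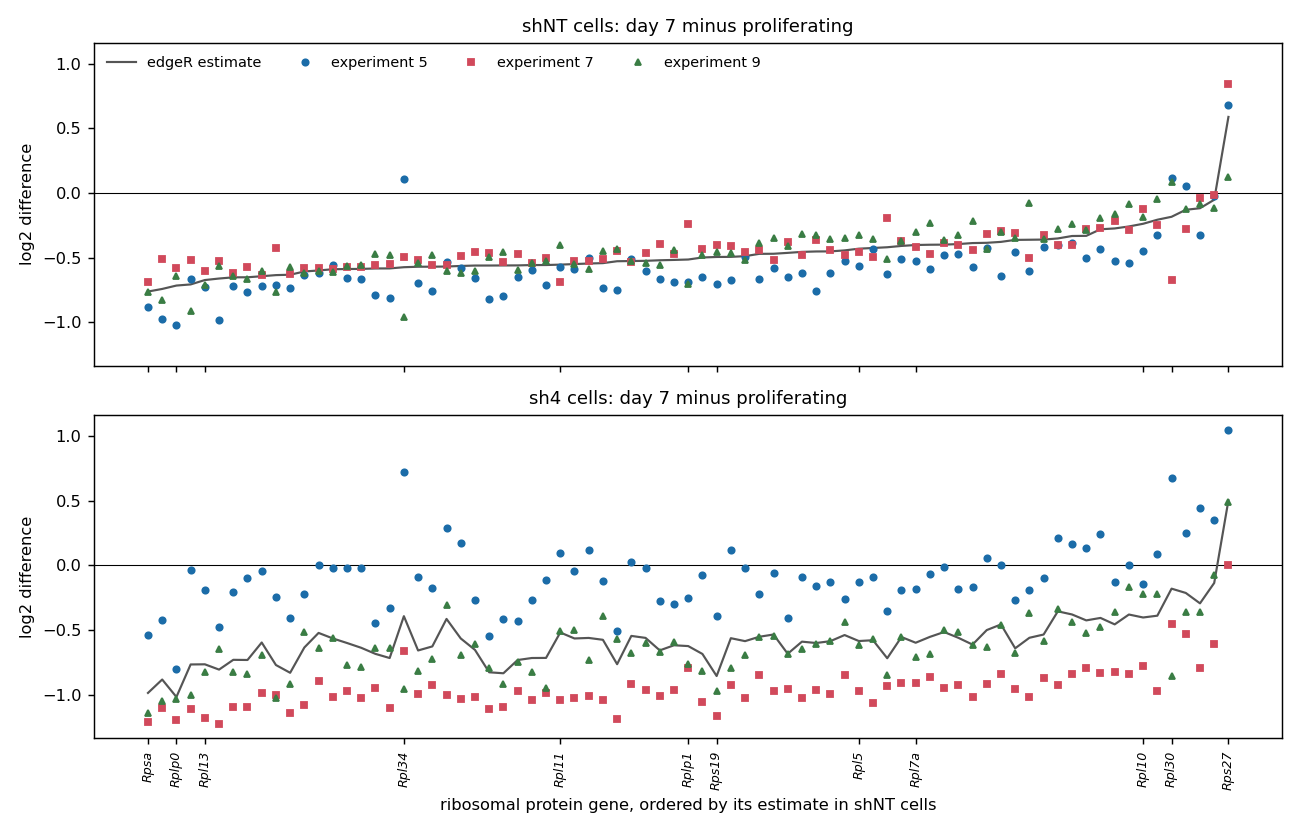
Log2 difference between day 7 and proliferating cells for each of the 77 tested members, in shNT cells (top) and sh4 cells (bottom). Points are the differences within experiments 5, 7 and 9 and the line is the edgeR estimate over all libraries, with 12 members labelled. In shNT cells the experiments lie close together, while in sh4 cells experiment 5 lies near 0 and experiment 7 near −1.

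The hairpin was compared with shNT within each state. In proliferating cells the median of the members was −0.11 (all tested genes −0.0022), and 74 of 77 estimates were negative. This median rests on single libraries: it ran from −0.31 without proliferating sh4 of experiment 7 to 0.027 without proliferating sh4 of experiment 5, and was −0.27, −0.042 and −0.0042 without proliferating shNT of experiments 5, 7 and 9, and −0.052 without proliferating sh4 of experiment 9. By edgeR 0 members passed, with or without the replicate block, 0 had an unadjusted p under 0.05, and DESeq2 gave 0 on both counts. The test called 0.0242% of all tested genes in this comparison, with the block and without it. The lowest estimates were those of Rps12 (−0.29, SE 0.29), Rpl13a (−0.25, SE 0.28), 59.3% of whose transcript overlaps other annotated genes on its strand, and Rplp1 (−0.21, SE 0.30). The highest were Rpl7a (0.031, SE 0.19), Rps27 (0.012, SE 0.39) and Rpl37a (0.0040, SE 0.22), all within 1 SE of 0. The medians within experiments 5, 7 and 9 were −0.02, 0.09 and −0.41, so experiment 9 lay farthest from 0.

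At day 7 the median of the members for sh4 against shNT was −0.22 (all tested genes 0.016), and all 77 estimates were negative. Here too 0 members passed by edgeR and 0 had an unadjusted p under 0.05, against 0.435% of all tested genes past the threshold, and with the replicate block 0 members passed, against 3.55%. DESeq2 called 0, with 1 at an unadjusted p under 0.05. Summed urothelial markers were higher in these sh4 libraries than in all others, and their part in the result was not tested. Among the lowest estimates were Rps19 (−0.47, SE 0.25, adjusted p = 0.499), Rplp0 (−0.44, SE 0.22, adjusted p = 0.468), Rps12 (−0.43, SE 0.29) and Rpl13a (−0.39, SE 0.28). The highest were Rpl36 (−0.0003, SE 0.30), Rpl34 (−0.01, SE 0.41), Rpl38 (−0.03, SE 0.22), Rps2 (−0.03, SE 0.27) and Rpl27 (−0.04, SE 0.23).

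A single direction in the pooled estimate hid opposite directions in the experiments. In experiment 5, all 77 members were higher in day 7 sh4 cells than in day 7 shNT cells, with a median of 0.46 and a range of 0.19 to 0.68. In experiment 7 all 77 were lower, with a median of −0.46 and a range of −0.63 to −0.19, and in experiment 9, 76 were lower, with a median of −0.58. Rplp0 shows the pattern: 1145 against 1322 CPM in experiment 5, 1916 against 1314 in experiment 7, and 1976 against 1079 in experiment 9, shNT first. Among the 6 day 7 libraries the shNT library of experiment 5 had the lowest share of member counts, at 3.40%, and the smallest total, at 14524429 counts. The sh4 library of experiment 5 had the highest share of the 3 day 7 sh4 libraries, at 4.60%, and the largest total of all. The part of library size in this difference was not tested. Leaving out 1 library gave medians from −0.43 without day 7 shNT of experiment 5 to −0.094 without day 7 shNT of experiment 9, with −0.14 without day 7 shNT of experiment 7 and −0.33 without day 7 sh4 of experiment 5. Without experiment 5 the median was −0.52, and without experiment 9 it was −0.03, with 0 members past the edgeR threshold in either case. At an unadjusted p under 0.05 there were 55 and 0. The share of all tested genes at that level is not given, and these subsets were chosen after seeing the data, so the 55 are not read further.

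**Figure D5:**
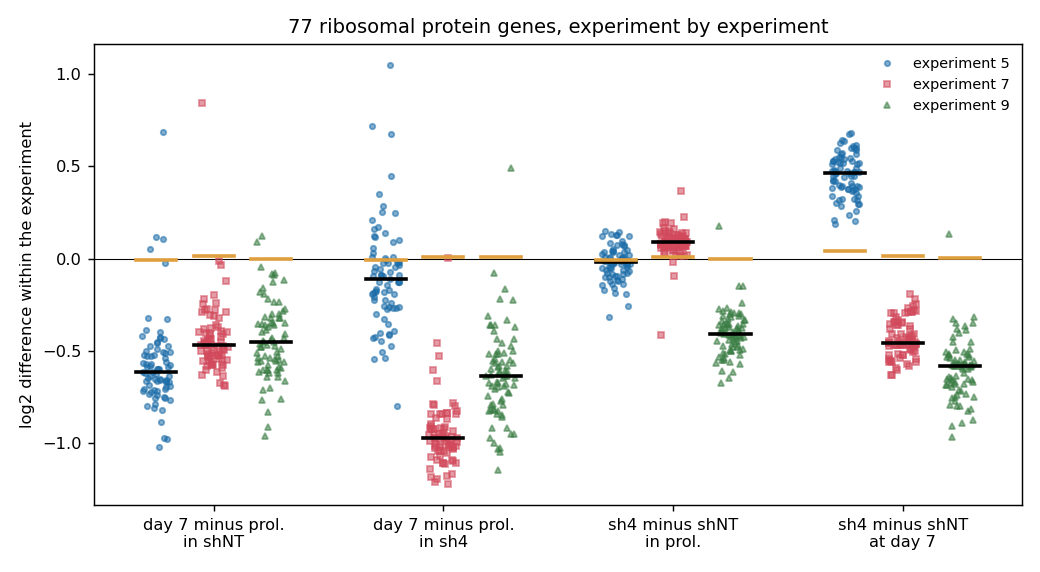
Log2 difference within each experiment for the 77 tested members, in 4 comparisons. Points are genes, black bars the median of the members and orange bars the median of all tested genes. For sh4 against shNT at day 7 the median is 0.46 in experiment 5, −0.46 in experiment 7 and −0.58 in experiment 9.

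The interaction, the hairpin's effect at day 7 minus that in proliferating cells, had a median of −0.12 over the members (all tested genes 0.0091). By edgeR 0 members passed, 0 had an unadjusted p under 0.05, DESeq2 gave 0 on both counts, and 0.0% of all tested genes passed with or without the block. The lowest estimates included Rps19 (−0.36, SE 0.35) and Rplp0 (−0.30, SE 0.31), and the highest were Rpl34 (0.18, SE 0.58), Rpl36 (0.15, SE 0.43) and Rpl27 (0.08, SE 0.33). The larger count of fallen members in sh4 than in shNT cells is therefore not shown to be a difference between them. The median of the interaction ran from −0.31 to 0.087 with 1 library left out, and turned positive without proliferating shNT of experiment 5, proliferating sh4 of experiment 7 or day 7 shNT of experiment 9. Without experiment 7 it was 0.14. Within experiments 5, 7 and 9 the median of the interaction was 0.48, −0.53 and −0.19.

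Most of the variation between libraries was common to the whole set. Over the 12 libraries the log2 CPM of the 74 abundant members had a median SD of 0.41, and after subtraction of each library's median member the SD was 0.13, ranging from 0.06 in Rps7 to 0.31 in Rps28. Members that kept apart from the rest could be read on that relative scale. Rpsa stood 0.27 ± 0.085 (SD over 3 experiments) below the median member's difference at day 7 in shNT cells, and 0.32 ± 0.15 below it in sh4 cells. Rplp0 stood 0.24 ± 0.13 and 0.36 ± 0.22 below. Rpl22 stood 0.46 ± 0.17 above in shNT cells and 0.54 ± 0.083 above in sh4 cells, and Rps21 0.36 ± 0.066 and 0.41 ± 0.22 above. These are relative changes within the set, described without a test.

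The annotated run was then set beside the differences. Among tested members with a window used here, the 25 with a run of at least 8 C and T bases had a median log2 fold change of −0.50 at day 7 in shNT cells, and the 30 with shorter runs −0.53. In sh4 cells the medians were −0.58 and −0.59. Rplp0 and Rpsa, with runs of 5, and Rpl7a, with the run of 21 and a log2 fold change of −0.40 (SE 0.20, adjusted p = 0.168) in shNT cells, were not ordered alike in run and in difference. Dropping members with low counts or with 20% or more of their sequence shared with another row left 69, with medians of −0.52 and −0.59 and 1 and 12 past the threshold.

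Genes that work with the ribosomal proteins were read from lists chosen by function. In the hairpin comparisons 0 genes of any list passed by edgeR without the block. With the block, Eif4ebp2 (−1.22, adjusted p = 0.0238) and Mxd1 (−0.74, adjusted p = 0.0326) fell at day 7 in sh4 against shNT cells. Of 6 tested ribosomal proteins outside the symbol rule, such as Fau and Gnb2l1, which encodes RACK1, 0 passed by edgeR, and their medians at day 7 were −0.31 in shNT and −0.49 in sh4 cells. With the block 1 of the 6, Gnb2l1, fell in both (adjusted p = 0.0345 and 0.0214). That is 16.7%, below the 18.5% and 17.2% of all tested genes. Of 18 translation factors and related genes known for TOP mRNAs, 2 fell in shNT cells (11.1%, median −0.41), near the 11.7% of all tested genes, and 6 in sh4 cells (33.3%, median −0.54), against 10.8%. With the replicate block 6 and 8 fell (33.3% and 44.4%, against 18.5% and 17.2%), while Eif4a2 rose in both (adjusted p = 0.0151 and 0.0392 with the block). Npm1, a nucleolar chaperone of ribosome assembly, fell from 886, 1687 and 1849 CPM to 490, 787 and 723 CPM in shNT cells, by 1.14 on the log2 scale (SE 0.29, edgeR adjusted p = 0.0184). Pabpc1, the poly(A)-binding protein, fell by 0.75 (SE 0.20, adjusted p = 0.0240). In sh4 cells the 4 largest were Npm1 (−1.09, SE 0.29), Hnrnpa1 (−1.03, SE 0.26), and the elongation factor subunits Eef1b2 (−0.98, SE 0.30) and Eef1g (−0.80, SE 0.23). Each of these calls was lost without 1 of 3 to 7 of the 12 libraries. The Hnrnpa1 row was low, at 7.17, 8.64 and 10.9 CPM in proliferating sh4 cells and at 3.94, 5.07 and 4.10 CPM at day 7. Its estimate may not describe the whole mRNA, which was not tested.

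Dedicated chaperones bring single ribosomal proteins to the assembling subunit. Of 10 tested, 2 (against 11.7% of all tested genes) fell at day 7 in shNT cells: Grwd1, which escorts RPL3, by 1.13 (SE 0.31, adjusted p = 0.0269) and Ltv1, an assembly factor of the small-subunit head, by 0.76 (SE 0.22, adjusted p = 0.0351), with a list median of −0.46. In sh4 cells 0 of 10 passed by edgeR, against 10.8% of all tested genes, and the median was −0.37. With the block 5 fell in shNT and 2 in sh4 cells. Over so few genes these counts are not read further. Both calls were lost without 1 of 4 and 1 of 6 libraries.

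Regulators of the set differed among themselves. Of 15 tested genes of mTORC1 and the TOP mRNA pathway, 1 fell at day 7 in shNT cells and 1 in sh4 cells (6.67% in each). The shares of all tested genes were 11.7% and 10.8%, and the list medians were −0.06 and −0.11. In shNT cells Eif4e, the cap-binding protein, fell by 0.64 (SE 0.20, adjusted p = 0.0457), a call lost without any 1 of 9 libraries. Eif4ebp2, a repressor of the cap-binding protein, was at 94.2, 72.6 and 67.4 CPM in proliferating sh4 cells and at 19.5, 45.3 and 30.7 CPM at day 7, with no overlap. It fell by 1.30 (SE 0.24, adjusted p = 0.00438), and the call held without any 1 library. Of 8 tested Myc family genes, Myc itself had −1.14 in shNT cells (SE 0.38, adjusted p = 0.0578, or 0.00319 with the block). Mxd3, which was near 1 CPM, fell in both shNT (−3.36, SE 0.68, adjusted p = 0.00602) and sh4 cells (−1.91, SE 0.56, adjusted p = 0.0368). Mnt was higher in shNT cells (0.30, SE 0.10, adjusted p = 0.0481), and Mxd1 fell in sh4 cells (−1.12, SE 0.32, adjusted p = 0.0352). The Mnt call was lost without any 1 of 10 libraries, that of Mxd3 in sh4 cells without any 1 of 8 and that of Mxd1 without any 1 of 4. The Rps6ka genes, which encode kinases and not ribosomal proteins, are left out by the symbol rule. Among 6 of them, 2 fell in shNT cells (33.3%, against 11.7%) and 1 in sh4 cells (16.7%, against 10.8%), counts also not read further. Rps6ka2 fell in shNT cells (−0.90, SE 0.23, adjusted p = 0.0201, lost without any 1 of 3 libraries) and Rps6ka4 in shNT (−0.84, SE 0.13, adjusted p = 0.00124) and sh4 cells (−0.90, SE 0.13, adjusted p = 0.00122).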

How the data were processed

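Poly(A) RNA of 12 libraries was sequenced from a stranded kit, per the labels' protocols. The deposited values are counts of reads for each gene symbol, whole and not normalized. Bowtie, TopHat, HTSeq, DESeq2 and the build mm10 are named in the submitters' processing notes, and their settings are not given in the sources used here. ERCC RNA was added per the labels, but spike-in rows were not used here.

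The members and lists were chosen with earlier results of these data known. In R 4.3.3 with edgeR 4.0.16, filterByExpr (minimum count 10) kept 12406 genes, libraries were scaled by TMM (factors 0.949 to 1.04), and a quasi-likelihood model (glmQLFit, glmQLFTest) with a mean for each of the 4 groups gave 5 contrasts, with Benjamini-Hochberg adjustment over all tested genes and a threshold of 0.05. The SE is the log2 fold change divided by the square root of F. Differences within an experiment used log2 CPM with a prior count of 2. On simulated data 80.8% of genes with a log2 change of 1 were recovered in the comparison of shNT cells, with 5.29% false calls. The simulation gave all genes the same spread, smaller than the common spread fitted to these libraries, and no difference between experiments. Its recovery is therefore not the power of the test for the members, whose median change was smaller than 1.

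Replicates of a group differed by 36.6 to 99.7 times the sampling noise (chi-square per degree of freedom), and 0 pairs were identical. Pairing comes from the experiment number, which is the batch in the labels, and deviations of same-numbered libraries correlated at 0.225 to 0.789 over 18 pairs. Counting error alone is not a limit for the 74 abundant members.

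Named genes were paralog pairs and members with special roles, the 5 highest and 5 lowest estimates for quiescence in control cells and knockdown in quiescent cells, the 3 highest and 3 lowest for the other contrasts, members past the threshold, members under the filter, Stag2, and up to 4 genes past the threshold per list. Others, such as Myc, Gnb2l1, Eif4a2, Rps7 and Rps28, were named outside this rule, with their values known. Alternatives were the replicate block, DESeq2 1.42.0, other scalings and filters, GC and length offsets, fewer samples, and leaving out each library. Leaving out whole experiments was added after seeing the data. Length per gene came from 1 GENCODE M21 transcript, preferring protein-coding, CCDS-tagged and well-supported ones. The shortest of these was then taken for members, while for other genes the annotated rank as principal isoform came before length. Some genes that the rule selects are not reported here.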

Additional observations from a re-analysis of the deposited data

How the results depend on the processing

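The medians of the members at day 7 stayed negative under each alternative tried, from −0.65 to −0.30 in shNT cells and from −0.72 to −0.40 in sh4 cells when 1 library was left out, while the counts of calls did not stay within 1.5 times. In shNT cells, 1 member passed, against 22 with the replicate block, 7 with DESeq2, 9 with GC and length offsets, 50 with the replicate block and those offsets, 0 with no low-count filter, 0 with only the samples compared, and 0 to 14 with 1 library left out. In sh4 cells, 12 passed, against 34 with the replicate block, 25 with DESeq2, 36 with GC and length offsets, 63 with the replicate block and those offsets, and 1 to 18 with 1 library left out. Chosen after seeing the data, leaving out experiment 5, 7 or 9 gave 5, 0 and 0 in shNT cells and 49, 0 and 0 in sh4 cells. For sh4 against shNT at day 7, 1 member passed with the replicate block and GC and length offsets, against 0. The share of all tested genes called in that comparison and setting is not given here. That count is therefore not read as a result about the members. The cause of the shifts in counts was not tested. The block changed no other count of members by over 1.5 times. The share of all tested genes called lower in shNT cells was 11.7%, against 18.5% with the block, 13.5% with DESeq2, 12.7% with GC and length offsets, 20.5% with the block and those offsets, 7.48% with no low-count filter, 8.23% with only the samples compared, and 9.4%, 3.24% and 5.03% without experiment 5, 7 or 9. In sh4 cells it was 10.8%, against 17.2% with the block, 12.4% with DESeq2, 12% with the offsets, 18.9% with the block and offsets, and 8.3%, 3.72% and 3.83% without experiment 5, 7 or 9. With 1 library left out this share ran from 6.99% to 13.8% in shNT cells and from 5.82% to 11.0% in sh4 cells.

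The following estimates (log2 fold changes) changed sign, none of them past the threshold in the values reported above. With GC and length offsets, the values were Rps27l 0.0101, Rpl22 0.0683 for day 7 in shNT cells, and Rpl7a −0.0113, Rps27 −0.0371, Rpl37a −0.0177 for sh4 against shNT in proliferating cells. Under the replicate block with GC and length offsets, the values were Rps27l 0.0121, Rpl22 0.0625 for day 7 in shNT cells, and Rpl7a −0.00929, Rps27 −0.0453, Rpl37a −0.0247 for sh4 against shNT in proliferating cells. With experiment 5 left out, the values were Rpl7a −0.00635, Rpl37a −0.0228 for sh4 against shNT in proliferating cells, and Rpl34 −0.0729, Rpl36 −0.14, Rpl27 −0.18 for the interaction. With experiment 7 left out, the values were Rpl7a −0.0228, Rps27 −0.23, Rpl37a −0.12 for sh4 against shNT in proliferating cells, and Rpl36 0.16, Rpl34 0.14, Rpl38 0.0895, Rps2 0.12, Rpl27 0.0538 for sh4 against shNT at day 7, and Rpl30 0.10 for day 7 in shNT cells, and Rpl22 0.15 for day 7 in sh4 cells. Under the block alone, the values were Rps27 −0.000597, Rpl37a −0.00226 for sh4 against shNT in proliferating cells, and Rpl36 0.0624, Rpl34 0.0828, Rpl38 0.00930, Rpl27 0.00830 for sh4 against shNT at day 7. With the DESeq2 Wald test, the values were Rpl37a −0.00408 for sh4 against shNT in proliferating cells. With median-of-ratios size factors, the values were Rpl37a −0.00241 for sh4 against shNT in proliferating cells. With no low-count filter, the values were Rpl37a −0.00201 for sh4 against shNT in proliferating cells. With experiment 9 left out, the values were Rpl13a 0.0103, Rplp1 0.0176 for sh4 against shNT in proliferating cells, and Rpl36 0.15, Rpl34 0.14, Rpl38 0.17, Rps2 0.0927, Rpl27 0.16 for sh4 against shNT at day 7, and Rpl30 0.16 for day 7 in sh4 cells. With upper-quartile scaling, the values were Rpl36 0.0436, Rpl34 0.0345, Rpl38 0.0165, Rps2 0.00981, Rpl27 0.000255 for sh4 against shNT at day 7. With library totals only, the values were Rpl36 0.0306, Rpl34 0.0211, Rpl38 0.00321 for sh4 against shNT at day 7, and Rpl22 0.00393 for day 7 in shNT cells. With a mean count of at least 50, the values were Rpl36 0.00107 for sh4 against shNT at day 7. For sh4 against shNT in proliferating cells, leaving out 1 library gave Rpl13a −0.46 to 0.0293, Rpl37a −0.20 to 0.0930, Rpl7a −0.0964 to 0.11, Rps27 −0.24 to 0.26. For sh4 against shNT at day 7, leaving out 1 library gave Rpl27 −0.23 to 0.13, Rpl34 −0.18 to 0.11, Rpl36 −0.20 to 0.15, Rpl38 −0.19 to 0.15, Rps2 −0.19 to 0.13. For day 7 in shNT cells, leaving out 1 library gave Rpl22 −0.21 to 0.11, Rpl30 −0.39 to 0.0346, Rps21 −0.33 to 0.16. For day 7 in sh4 cells, leaving out 1 library gave Rpl22 −0.26 to 0.12. For the interaction, leaving out 1 library gave Rpl27 −0.11 to 0.25, Rpl34 −0.16 to 0.52, Rpl36 −0.0459 to 0.56. Among values of named genes, 1730 kept their direction and side of the threshold, 222 lost a call, 28 gained one and 88 changed sign. Each comparison rests on 3 experiments, and the hairpin differences went opposite ways among them. Low counts also limit Rps27, Rpl30 and Rpl34.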
